A study of Homo sapiens with 6 samples.

Results

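The 9 genes described here, MIXL1, MESP1, MESP2, GSC, LHX1, OTX2, ZIC2, SP8 and FOXC1, encode transcription factors of the primitive streak and mesendoderm. They were taken by symbol from a list of names, chosen with earlier results of these data known. All 9 were listed once in both deposited tables, among 37803 such symbols, and all 9 passed the filter of a mean FPKM of at least 1, with which 13909 genes were tested. FPKM gives fragments per length of transcript and per depth of the library. RNA-seq was done at day 2 of hematopoietic differentiation of the human embryonic stem cell line H1, in WT cells (n = 2) and in cells with SNAI1 deletion, whose titles form the groups SNAI1_1 (n = 2) and SNAI1_2 (n = 2). All groups were grown in mTeSR1 medium with 40 ng/ml activin A plus 50 ng/ml BMP4 per the labels. The methods of the study give these doses the other way round. They also name Custom TeSR as the medium of differentiation and mTeSR for maintenance. SNAI1 is a zinc-finger repressor of epithelial genes. The study describes a pair of CRISPR/Cas9 knockout lines per gene with frameshift mutations, and the labels do not say whether SNAI1_1 and SNAI1_2 are those lines. Each line would be 1 clone. The labels do not say that libraries of a group came from separate cultures, and the methods of the study speak of repeated independent experiments only in general, in a number that 2 libraries a group do not reach, so p-values measure the spread between these libraries, which may be technical.

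The primitive streak is the site where epiblast cells leave the epithelium and become mesoderm and endoderm. NODAL or activin signals, carried into the nucleus by SMAD proteins and the DNA-binding cofactor FOXH1, together with WNT and BMP signals, switch on its transcription factors. MIXL1, a paired-like homeodomain factor, is used widely in the streak. GSC, LHX1 and OTX2 are homeodomain factors of its anterior part, the organizer and the anterior mesendoderm. MESP1 and MESP2 are neighboring basic helix-loop-helix genes, the first known from the earliest cardiovascular mesoderm and the second from the segmentation of somites. FOXC1 is a forkhead factor of paraxial and other mesoderm. ZIC2 and SP8 are zinc-finger factors that are known at least as well from the early neural plate and the limb ectoderm as from the streak.

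The bases before the transcription start were examined first, because FOXH1 links activin to several of these genes and SNAI1 protein is known to bind E-boxes of the form CAGGTG. RefSeq promoter windows (build GRCh38.p14, 250 bases before to 50 after the start) were found for 7 of the 9 genes, as 8 windows since OTX2 has a pair of starts. MESP1 and LHX1 were not among them. The submitters' processing notes name hg19, so these coordinates are those of RefSeq and not of the files. The 250 bases before the start are shown for MIXL1 and MESP2, the windows that hold the letters AATCCACA of a FOXH1 site on either strand, and for FOXC1, the factor that rose, which has neither these letters nor an E-box. Capitals mark the FOXH1 letters. The MIXL1 window is chr1:226223414-226223663, the MESP2 window chr15:89776082-89776331 and the FOXC1 window chr6:1609665-1609914, all on the plus strand.
MIXL1: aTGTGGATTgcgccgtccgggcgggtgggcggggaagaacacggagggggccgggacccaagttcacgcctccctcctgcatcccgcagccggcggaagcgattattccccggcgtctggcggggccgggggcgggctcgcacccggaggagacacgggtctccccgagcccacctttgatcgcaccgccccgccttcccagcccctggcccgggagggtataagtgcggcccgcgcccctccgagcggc
MESP2: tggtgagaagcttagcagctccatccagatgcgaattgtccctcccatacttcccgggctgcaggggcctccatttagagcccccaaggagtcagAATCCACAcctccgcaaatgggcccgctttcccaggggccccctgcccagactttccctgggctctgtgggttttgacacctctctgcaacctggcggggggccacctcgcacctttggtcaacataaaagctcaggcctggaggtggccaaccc
FOXC1: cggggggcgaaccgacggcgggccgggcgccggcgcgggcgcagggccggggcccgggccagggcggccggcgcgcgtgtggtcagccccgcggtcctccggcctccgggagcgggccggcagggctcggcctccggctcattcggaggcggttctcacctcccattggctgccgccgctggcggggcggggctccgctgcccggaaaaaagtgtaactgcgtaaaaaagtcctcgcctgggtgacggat

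The FOXH1 letters lay 249 bases before the MIXL1 start, as the reverse complement TGTGGATT, and 155 bases before the MESP2 start. Of all 35116 windows of this length, 0.817% held them. CAGGTG on either strand was in 0 of the 8 windows of these factors and in 20.6% of all windows, so these letters were not seen in this stretch. The wider E-box CANNTG, which includes CAGGTG, was in 68.7% of all windows. MESP2 had 2 such E-boxes, GSC had 2, and MIXL1, ZIC2 and FOXC1 had 0. TAATCC, the core letters bound by GSC and OTX2 proteins, was in 6.36% of all windows and in 0 of these 8, as were the T-box letters AGGTGTGA (0.98% of all). GSC held the TATA-box letters TATAAA, which 11.5% of all windows do. A match of letters shows neither binding nor use.

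SNAI1 mRNA was measured first, since it is the targeted gene. In WT, SNAI1 was at 37.1 FPKM in the first table and at 36.4 FPKM in the second. The SNAI1_1 libraries had 51.6 and 47.8 FPKM and the SNAI1_2 libraries 68.6 and 55.0, all above both WT libraries. A frameshift can leave the transcript in place, so this level does not check the labels. Every library summed to between 603399 and 633851 FPKM, with 13626 to 14164 symbols at 1 FPKM or more, and absolute depth is unknown. The first table does not name its unit, and the tables were scaled separately, so knockout and WT libraries were set against each other within a table.

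At day 2 the WT cells had all 9 transcripts, at very different levels. MIXL1 was the highest, with 462 and 461 FPKM in the WT libraries, above 98.8% of the genes tested. OTX2 followed with a mean of 86.4 ± 9.66 FPKM (SD, n = 2), then ZIC2 with 81.8 ± 28.6, GSC with 62.6 ± 16.2, LHX1 with 53.9 ± 18.1 and MESP1 with 53.5 ± 1.76. Each neighboring pair among these 5 lay within its spread between libraries. MESP2 was lower, at 27.5 ± 2.44 FPKM, and FOXC1 (9.87 ± 6.64) and SP8 (6.59 ± 2.08) were lowest and not separated by their spread. Because FPKM is per length, levels of different genes can be set side by side, but these means run across both tables. In both knockout groups ZIC2 was in place 2 and OTX2 in place 3, LHX1 moved from place 5 to place 6 behind MESP1, and MESP2 from place 7 to place 8 behind FOXC1.

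With SNAI1 deletion, LHX1 and MESP2 fell to between 25.9% and 38.8% of the WT level of the same table, MESP1 fell mildly, and FOXC1 rose. The same 4 factors passed the test in SNAI1_1, in SNAI1_2 and in both groups pooled, and MIXL1, GSC, OTX2, ZIC2 and SP8 did not pass it in any of these comparisons. The test was limma on log2(FPKM + 1) with the table as a block, with p-values adjusted over all genes tested and a threshold of 0.05. A call was no rare event in these data: 23.9% of all genes tested were called in SNAI1_1 against WT, 25.5% in SNAI1_2 against WT and 31.3% in both groups against WT, of which 15.8% were higher and 15.4% lower. Against these shares stand 4 of 9 factors in each comparison, 1 higher and 3 lower. The 9 were chosen with earlier results of these data known, so the count and the shares are not a fair test. In RNA from whole cultures, fewer cells of a kind and less RNA per cell cannot be told apart.

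**Figure D1:**
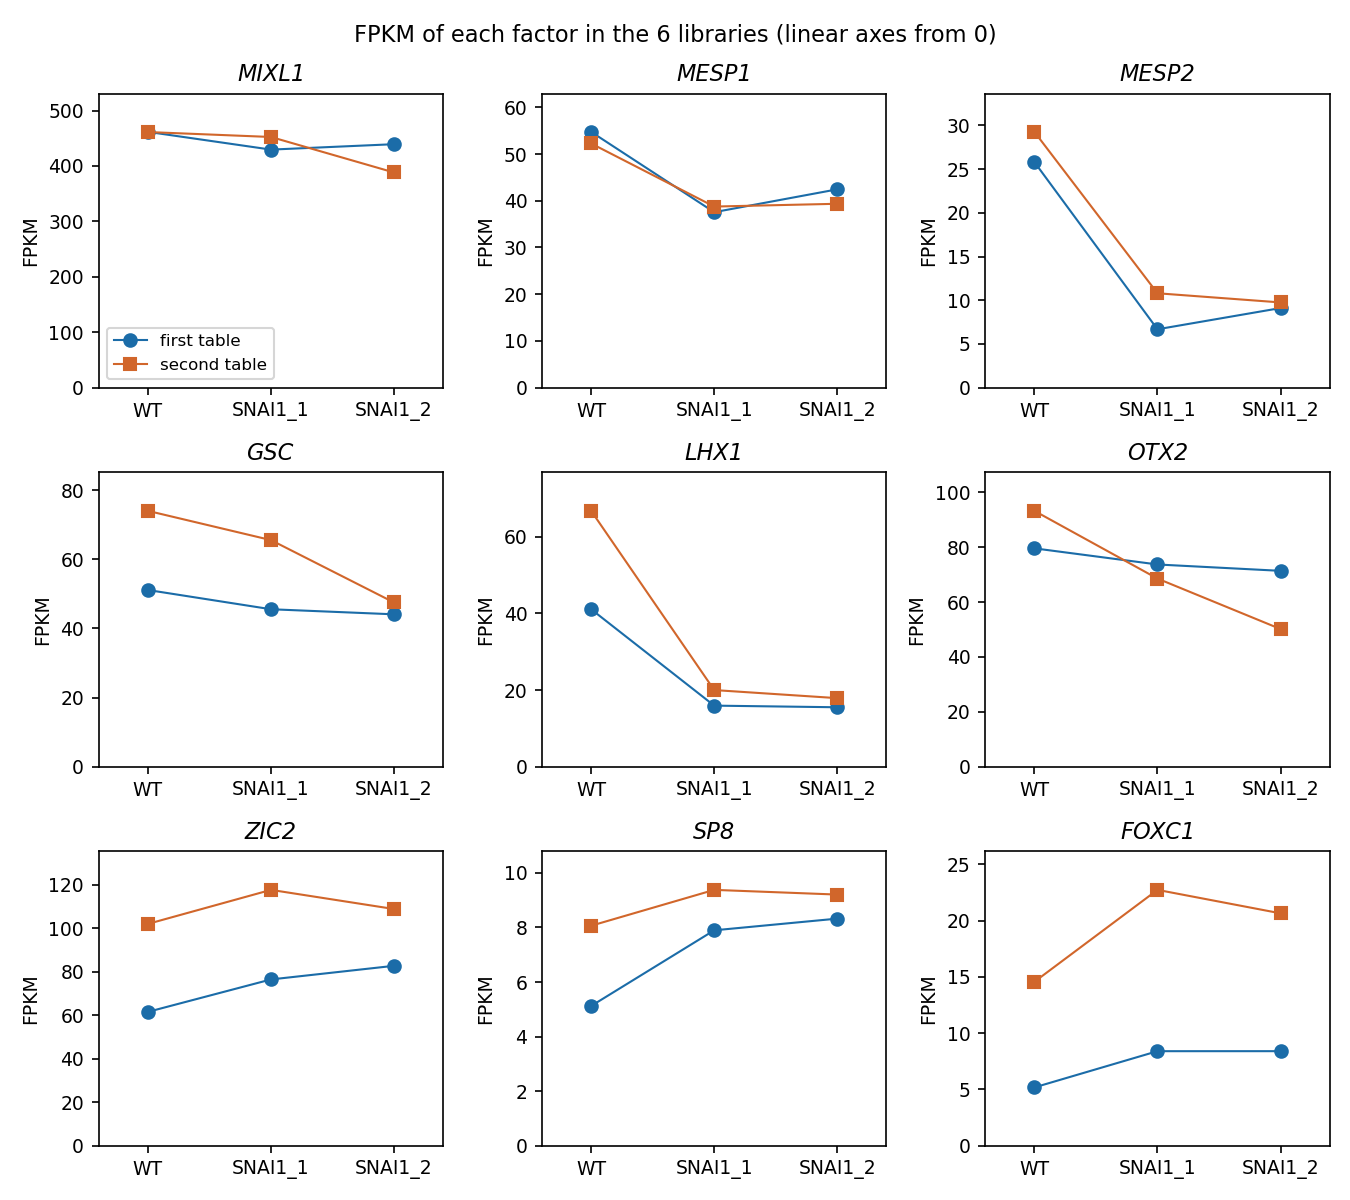
FPKM (linear axes from 0) of each factor in the 6 libraries, with WT, SNAI1_1 and SNAI1_2 on the horizontal axis. Blue circles are the libraries of the first table and orange squares those of the second, each joined by a line, and MESP2 and LHX1 show the steepest drop from WT in both tables.

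Among the early streak and organizer factors, LHX1, a LIM-homeodomain factor needed for the organizer and head, had the largest fall. LHX1 was at 41.1 FPKM in WT of the first table, with 15.9 in SNAI1_1 and 15.5 in SNAI1_2. In the second table it was at 66.7 in WT, 20.0 in SNAI1_1 and 17.9 in SNAI1_2. All 4 knockout libraries were below both WT libraries, with no overlap, at 37.7% to 38.8% of WT in the first table and 26.8% to 29.9% in the second. The log2 difference of both knockout groups from WT was -1.55 ± 0.11 (SE), with a 95% interval from -1.84 to -1.26 and a limma adjusted p of 0.000815. SNAI1_1 differed from WT by -1.50 (adjusted p = 0.002) and SNAI1_2 by -1.60 (adjusted p = 0.00148). Its knockout difference was unequal between the tables by -0.43 on the log2 scale, with an unadjusted p of 0.0247 in the limma fit, which the adjustment over all genes took to 0.702.

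GSC, the homeodomain repressor that marks the organizer, was lower by less. Its FPKM was 51.1 in WT, 45.6 in SNAI1_1 and 44.1 in SNAI1_2 in the first table, against 74.0, 65.6 and 47.5 in the second. Each knockout library lay under the WT library of its own table, but knockout and WT values overlapped across tables. The log2 difference for both groups was -0.29 ± 0.10 (SE, adjusted p = 0.0839, limma), with an interval from -0.55 to -0.035 before adjustment. OTX2, a homeodomain factor of the anterior mesendoderm and later of the forebrain, had 79.6 FPKM in WT, 73.7 in SNAI1_1 and 71.4 in SNAI1_2 in the first table, against 93.2, 68.6 and 50.2 in the second. All 4 knockout libraries were below both WT libraries. The distance was small in the first table, where they held 89.7% to 92.6% of WT, and larger in the second, with 53.8% and 73.5%. Its log2 difference was -0.40 ± 0.14 (SE, adjusted p = 0.0929, limma). Without the SNAI1_2 library of the first table, GSC and OTX2 passed the threshold, with limma adjusted p-values of 0.0228 and 0.0325.

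MIXL1, by far the most abundant of the 9, was nearly level. The FPKM values were 462 in WT, 430 in SNAI1_1 and 439 in SNAI1_2 in the first table, against 461, 452 and 388 in the second. Every knockout library was below both WT libraries, which differed from each other by very little. Across both groups the log2 difference was -0.11 ± 0.059 (SE, adjusted p = 0.205, limma), and its interval, from -0.26 to 0.037, stands for a ratio of knockout to WT between 0.834 and 1.03 on the FPKM + 1 scale. In SNAI1_1 alone the difference of -0.066 went to 0.016 without the SNAI1_1 library of the first table, so it has no steady sign there. The MIXL1 and MESP2 windows share the FOXH1 letters shown above, and whether these letters bear on the level of either gene was not tested.

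MESP1 and MESP2, which lie side by side on chromosome 15, both fell. MESP2 was at 25.8 FPKM in WT of the first table against 6.68 in SNAI1_1 and 9.10 in SNAI1_2. The second table had 29.3 in WT, 10.8 in SNAI1_1 and 9.75 in SNAI1_2. Knockout libraries therefore held 25.9% to 36.9% of the WT level of their table, and none overlapped with WT. MESP2 differed by -1.52 ± 0.13 (SE) on the log2 scale with a limma adjusted p of 0.0012, by -1.58 in SNAI1_1 (adjusted p = 0.00238) and by -1.45 in SNAI1_2 (adjusted p = 0.00275). For MESP1 the values were 54.7 FPKM in WT, 37.6 in SNAI1_1 and 42.4 in SNAI1_2 in the first table, against 52.3, 38.8 and 39.4 in the second. The knockout libraries sat close together, at 68.6% to 77.5% of WT, with no overlap. The MESP1 log2 difference was -0.43 ± 0.059 (SE, adjusted p = 0.00569, limma), with -0.48 in SNAI1_1 (adjusted p = 0.00846) and -0.38 in SNAI1_2 (adjusted p = 0.0152). Whether the falls of MESP1 and MESP2 differ in size was not tested.

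FOXC1 was the factor that rose. Its FPKM was 5.18 in WT and 8.40 in both knockout libraries of the first table, and 14.6 in WT, 22.7 in SNAI1_1 and 20.7 in SNAI1_2 in the second. Within each table both knockout libraries were above WT, at 1.42 to 1.62 times its level, yet the ranges overlapped across tables. The tables themselves lay far apart for this gene: the WT library of the second table held 2.81 times the FOXC1 of the first, a ratio above that of 98.5% of the genes tested. With the table as a block, the log2 difference was 0.57 ± 0.078 (SE, adjusted p = 0.0054, limma). SNAI1_1 differed by 0.61 (adjusted p = 0.00928) and SNAI1_2 by 0.54 (adjusted p = 0.0121).

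ZIC2 and SP8 were higher than WT in each knockout library without passing the test. ZIC2 had 61.6 FPKM in WT, 76.5 in SNAI1_1 and 82.8 in SNAI1_2 in the first table, against 102, 118 and 109 in the second. SP8 had 5.12, 7.90 and 8.33 FPKM in the first table, against 8.06, 9.38 and 9.21 in the second, in the same order of groups. For both genes the first table showed the larger gap, and knockout and WT values overlapped across tables. The log2 difference was 0.26 ± 0.077 (SE, adjusted p = 0.0562, limma) for ZIC2 and 0.38 ± 0.12 (SE, adjusted p = 0.0644, limma) for SP8. ZIC2 lay near the threshold and passed it in 5 of 15 alternative fits, with limma adjusted p-values of 0.046 at a minimum mean of 5 FPKM, 0.0468 after quantile and 0.0365 after median-ratio scaling, 0.0309 with the knockout libraries as 1 group, and 0.0339 without the SNAI1_2 library of the second table.

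**Figure D2:**
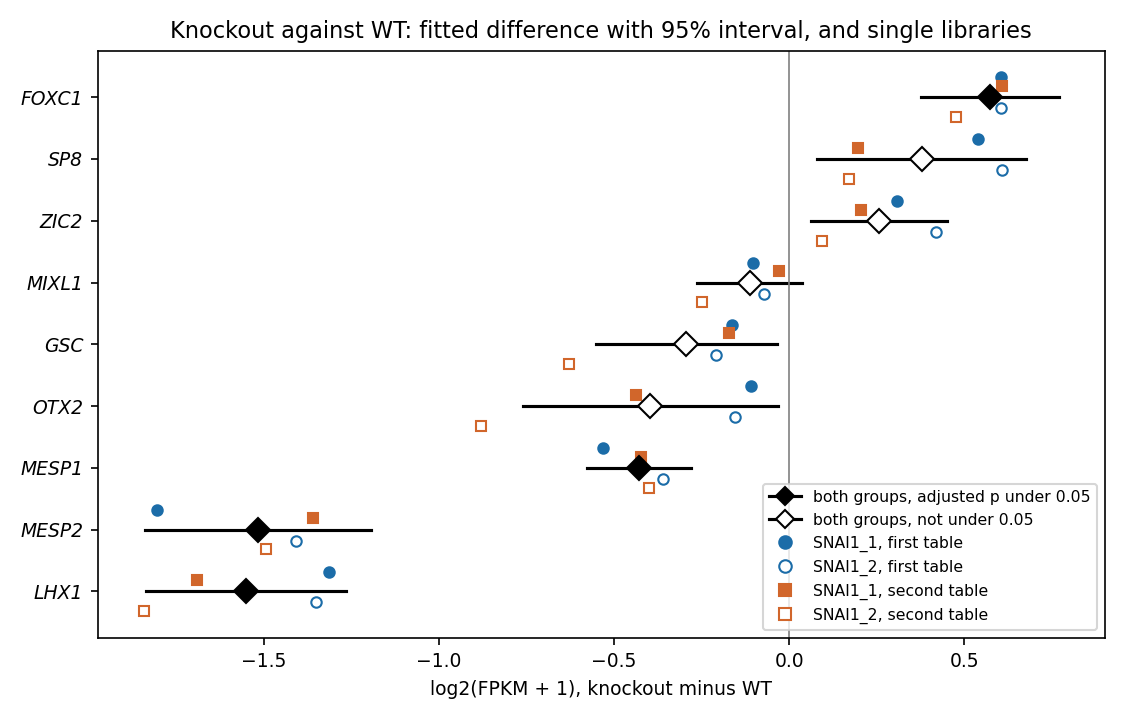
Difference of each factor from WT in log2(FPKM + 1) on the horizontal axis. Diamonds are the fitted mean of both knockout groups with its 95% interval, black where the adjusted p was under 0.05 (LHX1, MESP2, MESP1 and FOXC1), and the small symbols are single knockout libraries minus the WT library of the same table (circles first table, squares second, filled SNAI1_1, open SNAI1_2).

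Direction was the same in both knockout groups and both tables for each of the 9 factors. LHX1, MESP2, MESP1, OTX2, GSC and MIXL1 were lower than the WT library of their table in all 4 knockout libraries, 6 of 9, and FOXC1, SP8 and ZIC2 were higher in all 4, 3 of 9. Of all genes tested, 61.3% had 1 direction in all 4 differences, which share the WT libraries. All 4 knockout libraries lay below or above both WT libraries for 5 of the 9 factors, and for 34% of all genes tested. Between SNAI1_2 and SNAI1_1, 0 of the 9 factors differed by limma, with 0 at an unadjusted p under 0.05 and a smallest adjusted p of 0.9996. Over all genes, 0 (0%) passed in that comparison and 521 had an unadjusted p under 0.05. The widest interval for the 9 was that of OTX2, from -0.66 to 0.17, so differences of that size between the groups are not excluded by these data. In the test of whether the knockout difference itself depended on the table, 0 of the 9 passed by limma, 1 had an unadjusted p under 0.05, and 0.0431% of all genes passed.

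The calls for MESP1 and FOXC1 were less stable than those for LHX1 and MESP2. When the first-table WT library was left out, MESP1 had a limma adjusted p of 0.0594 and FOXC1 of 0.0523 for both groups against WT, no longer under the threshold, at log2 differences of -0.41 and 0.54. LHX1 and MESP2 stayed under the threshold in 15 of 15 alternative fits, between -1.77 and -1.20 for LHX1 and between -1.64 and -0.98 for MESP2. MESP1 and FOXC1 stayed under it in 13 of 15. Against WT in a single knockout group, leaving out each of the 6 libraries in turn ended the MESP1 call in 3 fits for SNAI1_1 and 4 for SNAI1_2, with limma adjusted p-values of up to 0.0747 and 0.113, and the FOXC1 call in 4 fits for each, with values of up to 0.0856 and 0.093. Those fits lacked a WT library or a library of the group itself, while LHX1 and MESP2 lost no call in any of theirs.

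Other transcription factors of the streak moved both ways. Over all genes tested, 15.8% were called higher and 15.4% lower, the shares to set beside the counts of this list and the later ones. The lists were chosen with earlier results known. Of 14 tested in a list of 15, 6 were higher, 5 were lower and 3 were not called, with a median log2 difference of 0.57 against -0.050 over all genes tested. The rises were in T (brachyury, the classic streak and posterior mesoderm factor, by 2.72, adjusted p = 0.000142, limma), CDX1 (a caudal homeodomain factor, by 3.16, adjusted p = 0.000325, limma), CDX2, MSGN1, EVX1 and SOX17. T went from 17.8 to 129.6 and 143 FPKM in the first table and from 38.7 to 218 and 251 in the second. The falls were in HAND1 (a lateral and extraembryonic mesoderm factor, -1.96, adjusted p = 0.000143, limma), GATA4 (a cardiac and endoderm factor, -1.23, adjusted p = 0.0012, limma), EOMES, GATA6 and FOXA2. With the first-table WT library left out, SOX17 (0.29, adjusted p = 0.0684), CDX2 (1.69, adjusted p = 0.0686) and FOXA2 (-0.61, adjusted p = 0.0571) lost their calls by limma, SOX17 did so too without each of 3 knockout libraries (adjusted p of up to 0.0998), and FOXA2 without the second-table WT library (adjusted p = 0.103). In the same libraries, LHX1, MESP1 and MESP2 were lower along with EOMES, and T and the caudal factors were higher.

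Signals and antagonists of the streak were also split. Of 14 tested in a list of 16, 4 were higher and 6 lower, with a median of -0.41. NODAL, the ligand that acts through FOXH1, rose by 2.34 (adjusted p = 0.000142, limma) and FGF4 by 2.32 (adjusted p = 0.000652, limma), with WNT3 and FGF17 also higher. LEFTY2, an inhibitor and target of NODAL, had a log2 difference of -2.69 (adjusted p = 0.000304, limma) and NOG, an inhibitor of BMP, of -2.46 (adjusted p = 0.000964, limma). LEFTY1, CER1, FGF8 and BMP4 were also lower. SHH and WNT3A were below the filter.

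**Figure D3:**
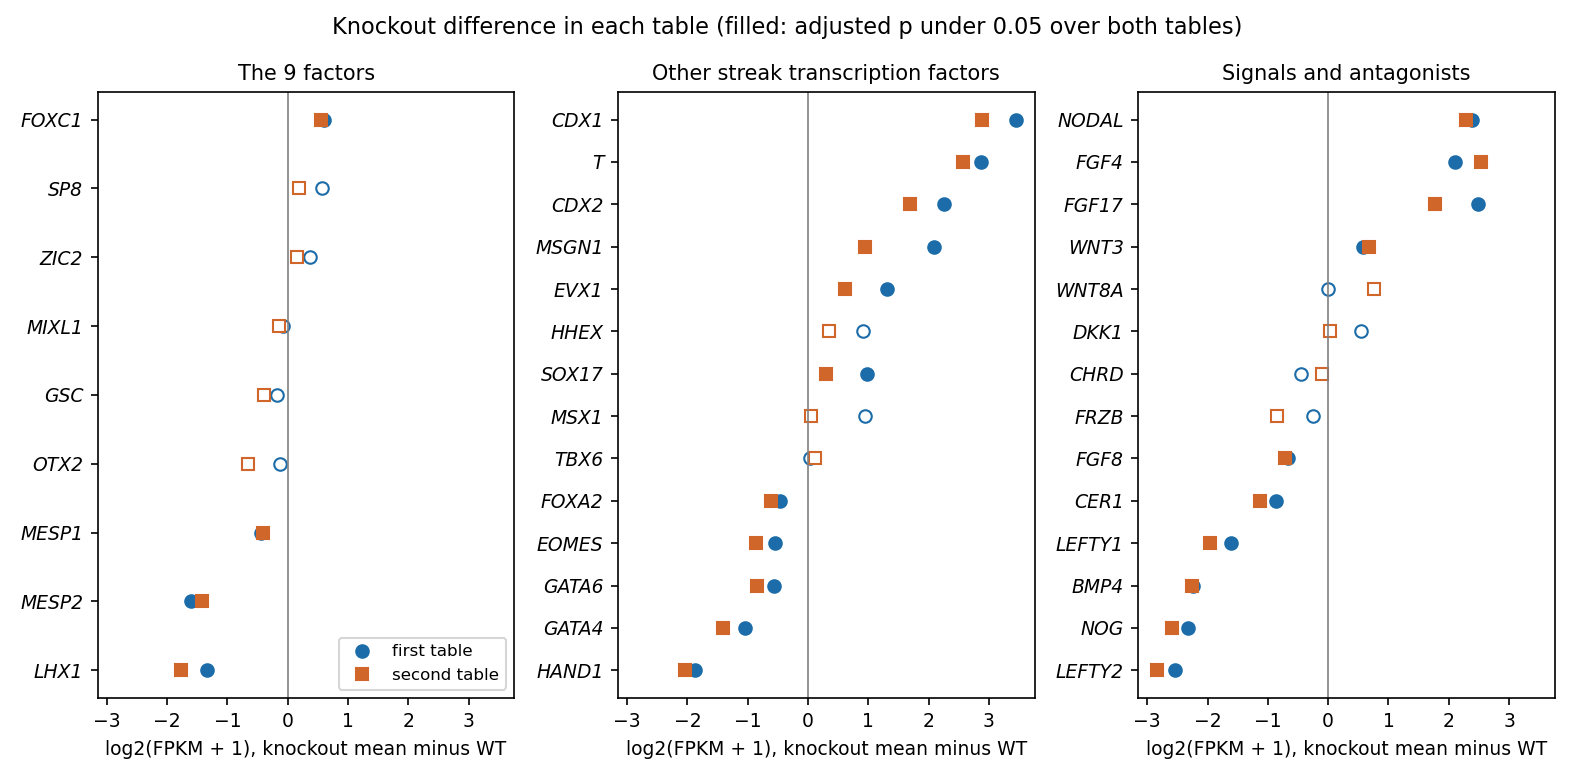
Mean of the knockout libraries minus WT in log2(FPKM + 1) for the 9 factors, the other streak transcription factors and the signals and antagonists that were tested, with circles for the first table and squares for the second. Filled symbols passed the adjusted threshold over both tables, and the largest differences among the 9, LHX1 at -1.55 and MESP2 at -1.52, were smaller in size than the rises of T and NODAL (2.72 and 2.34).

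The partners through which these factors are induced or act also moved both ways. Of 19 listed and tested, 3 were higher, 9 were lower and 7 were not called, with a median of -0.26. LDB2, which bridges LIM-homeodomain factors such as LHX1 into complexes, had a log2 difference of -1.27 (adjusted p = 0.000292, limma), and LDB1, which does the same, was also lower. TLE3, a Groucho corepressor, was at -0.72 (adjusted p = 0.0022, limma). SSBP2, which binds LDB proteins, was at 0.42 (adjusted p = 0.0461, limma) and TCF7, a WNT effector, at 0.31 (adjusted p = 0.0395, limma). FOXH1, named for its site and not by size, had 42.9, 52.0 and 52.4 FPKM in WT, SNAI1_1 and SNAI1_2 of the first table, against 38.7, 46.7 and 41.7 in the second. It was at 0.23 (adjusted p = 0.0446, limma). FOXH1, SSBP2 and TCF7, the 3 partners called higher, each lost the call whichever of the 6 libraries was left out.

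Close relatives of the 9 factors were mostly silent. Of 14 listed, 9 were below the filter, each under 1 FPKM in every library, among them FOXC2, GSC2, LHX5, ZIC1 and ZIC4. SP5, a WNT target related to SP8, was higher (0.91, adjusted p = 0.00462, limma). ZIC5, which lies beside ZIC2 in the genome, had 7.99, 11.1 and 11.2 FPKM in the first table, against 8.64, 11.2 and 9.46 in the second for WT, SNAI1_1 and SNAI1_2, a log2 difference of 0.33 ± 0.099 (SE, adjusted p = 0.0566, limma). Genes of the somite field in which MESP2 and FOXC1 act later were few: 4 of 10 found in both tables passed the filter. DLL3, a Notch ligand of presomitic mesoderm, was at -0.87 (adjusted p = 0.00258, limma), EPHA4 at -0.79 (adjusted p = 0.00263, limma) and LFNG, a modifier of Notch, at 0.85 (adjusted p = 0.00652, limma, and 0.063 with the second-table WT library left out). RIPPLY1, RIPPLY2, DLL1, HES7, MEOX1 and UNCX were below the filter. Of these, DLL1 and HES7 were higher than WT in all 4 knockout libraries and RIPPLY1 was lower in all 4.

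Because OTX2, ZIC2 and SP8 are also neural genes, and the others have uses outside the streak, markers of other cell types were read beside them. Of 10 neuroectoderm markers 7 were under 1 FPKM in every library, and the list summed to 2.84 to 4.35 FPKM in WT and 3.50 to 12.0 in the knockout libraries. Its 1 tested gene, SOX3, went from 0.0677 and 0.221 FPKM in WT to between 2.29 and 9.67 (adjusted p = 0.00642, limma, and 0.055 with the second-table WT library left out). PAX6, below the filter and not tested, went the other way, from 1.29 and 2.38 FPKM in WT to between 0.0242 and 0.184. HESX1 and LHX2, also below the filter, were lower than WT in all 4 knockout libraries. POU3F1, below it too, was higher in all 4, from 0.197 and 0.312 FPKM in WT to between 0.376 and 1.72. These genes were named after their values were seen. SOX10 was the 1 tested gene of 5 neural crest markers, whose sum was 1.55 to 2.24 FPKM in WT and 2.12 to 6.03 in the knockout libraries. Pluripotency markers summed to 1127 to 1148 FPKM in WT and 1366 to 1540 in the knockout libraries, with POU5F1, NANOG and DPPA4 higher of 8. POU5F1, the largest single part of this sum, had 485 and 630 FPKM in WT and 677 to 1014 in the knockout libraries. TDGF1 was lower than WT in all 4 knockout libraries, and SOX2, ZFP42 and LIN28A were higher in all 4. PRDM14 went both ways, and none of these genes besides POU5F1 was called. NANOG had 6.58 and 7.16 FPKM in WT and 11.7 to 19.2 in the knockout libraries. Endoderm markers had 2 of 6 higher and 2 lower, and their sum overlapped (247 to 582 in WT, 239 to 539 in the knockout libraries). The part of these cell types in the levels of the 9 factors was not tested.

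Amnion and trophoblast markers summed to 260 to 279 FPKM in WT and 122 to 143 in the knockout libraries, with 4 of 7 tested higher (IGFBP3, CDX2, TFAP2A and GABRP) and 2, GATA3 and HAND1, lower. HAND1 made up 77.3% to 86.5% of the WT sum. Without it the list summed to 37.8 and 58.9 FPKM in WT and 69.7 to 96.0 in the knockout libraries, higher and not lower. That rise includes IGFBP3, at 0.813 and 0.495 FPKM in WT and 20.7 to 25.0 in the knockout libraries. A sum without both genes was not made. Below the filter, ISL1 was lower than WT in all 4 knockout libraries, KRT7 was higher in all 4, and VTCN1 went both ways. Endothelial markers had 1 of 3 lower, KDR, with sums of 56.9 to 65.9 FPKM in WT and 39.6 to 44.2 in the knockout libraries. KDR alone had 62.9 and 53.8 FPKM in WT and 36.2 to 40.6 in the knockout libraries, so this sum is mainly that gene. SOX7, tested and not called, was higher than WT in all 4 knockout libraries. PECAM1, CDH5 and EMCN were below the filter, EMCN at 0 in every library. Cardiac markers had TNNT2 and MYL7 higher and NKX2-5 lower of 3 tested, with sums of 103 to 115 and 188 to 271. MYL7 alone had 90.9 and 84.8 FPKM in WT and 176 to 260 in the knockout libraries. Each of these 3 sums separated WT from knockout libraries, the first and second being lower and the cardiac sum higher in the knockout libraries. HAND1, KDR and MYL7 made up most of the respective WT sums. The part of these cell types in the falls of MESP1, MESP2 and LHX1 was not tested.

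The genes most like each factor over the 6 libraries were found by Pearson's r after the mean of each table was removed. The points share tables and depth, and with 6 libraries a high r is common, so these are descriptions. For LHX1 they were SRSF10 (r = 0.9997), PPP6C and PROB1, and 1426 genes had r above 0.95. Since r leaves out size, such genes need not change as much as the factor does. SRSF10 had a log2 difference of -0.16, PPP6C, not called, of -0.18 and PROB1 of -0.87, against -1.55 for LHX1. For MESP2 the likest genes were ZNF254 (r = 0.9996), IL11RA and POM121, with 1332 genes above 0.95, and for MESP1 PHKA2 (r = 0.9994), FBXO6 and LLGL1, with 1029. FOXC1 had LRRTM1 (r = 0.9997), HSD17B7 and ANO2, with 1417. The other factors had fewer such genes: 304 for SP8, led by RPS29P5 (r = 0.9998), 214 for ZIC2, led by TMEM14B (r = 0.9965), 160 for OTX2, led by CPT2 (r = 0.9997), 151 for GSC, led by AC012615.1 (r = 0.9984), and 114 for MIXL1, led by TMEM209 (r = 0.998). RPS29P5 had a log2 difference of 4.58, against 0.38 for SP8.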

How the data were processed

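RNA-seq libraries of 6 samples were analyzed. The authors deposited FPKM values by gene symbol as 2 tables, and each table holds WT, SNAI1_1 and SNAI1_2 once. Only the second table names its unit, and the first was taken to share it. The submitters' processing notes name hg19, BWA, Bowtie and RSEM, with roles and versions not given in the sources used here. Libraries were made from 2 ug of total RNA. Per-sample columns left unused numbered 0.

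Symbols listed more than once (94 and 340) were left out. A gene was tested if its FPKM averaged at least 1. The test was limma 3.58.1 in R 4.3.3 on log2(FPKM + 1), which understates changes of low genes, with group means, a term for the table, and eBayes with a mean-variance trend (2 residual and 3.34 prior degrees of freedom). Benjamini-Hochberg adjustment of two-sided p-values ran over 13909 genes. Libraries of 1 table form a block, and the table differences of the 3 groups correlated across genes (r = 0.616, 0.666 and 0.676). The columns carry no replicate number of the labels.

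The 9 factors and all gene lists were chosen with earlier results of these data known. Named genes are SNAI1, the 9 factors, the 3 genes most like each, and from each list at most 2 rises and 2 falls past the threshold. Others are named by direction only, or where the text says why. Of the genes this rule names, 1 is not reported here. Alternative settings were a model with no block, a pseudocount of 0.1 or 10, all genes without a filter, a minimum mean of 5, quantile and median-ratio scaling, no trend, the knockout libraries as 1 group, and leaving out each library. Depth is unknown, so no counting intervals are given, and count tests were not run.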

Additional observations from a re-analysis of the deposited data

How the results depend on the processing

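Without the replicate block for the table, 2 of the 9 factors were called in SNAI1_1, 2 in SNAI1_2 and 2 in both groups against WT, LHX1 and MESP2, and 1065 genes in all for both groups (576 in SNAI1_1 and 698 in SNAI1_2). MESP1 (adjusted p = 0.104) and FOXC1 (0.709) then lost their call by limma. Without the filter, 3, 2 and 4 factors and 1008, 1216 and 2139 genes were called, and 712 genes passed the test of a knockout difference between tables against 6 with it, while the other alternatives gave 0 to 16. Leaving out each library in turn gave 2 to 4 factors in SNAI1_1, 2 to 4 in SNAI1_2, 2 to 6 in both groups, and 1825 to 2919 genes in all for both groups. In single knockout groups the calls of MESP1 and FOXC1 were lost without either WT library, and without the first-table library of the group itself. Of the list genes named, FOXH1, SSBP2 and TCF7 lost their call whichever library was left out. SOX10, SOX17, FOXA2, CDX2, NANOG, KDR, LFNG, SOX3 and NKX2-5 lost theirs without at least 1 library. The MIXL1 difference in SNAI1_1 ran from -0.15 to 0.016 when libraries were left out. The knockout libraries as 1 group gave 6 factors, with ZIC2 and SP8 added, and a mean FPKM of at least 5 gave 5. Scaling moved the median over all genes by less than 0.1 and reversed no factor in the comparison of both groups with WT. Between SNAI1_2 and SNAI1_1, and between tables, 0 factors were called in every fit run. FPKM without read totals limits what can be said of SP8 and FOXC1, the lowest of the 9.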

Other observations

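Genes that flank the 9 factors in the order of RefSeq protein-coding genes were read after their values were seen. ANPEP, the aminopeptidase CD13, lies next to MESP2, so that MESP1, MESP2 and ANPEP stand in a row. ANPEP had 17.2, 3.40 and 5.48 FPKM in WT, SNAI1_1 and SNAI1_2 of the first table, against 23.2, 4.22 and 3.20 in the second. All 4 knockout libraries were below both WT libraries, with a log2 difference of -2.07 ± 0.23 (SE, adjusted p = 0.00268, limma). All 3 genes of this row were lower, but MESP1 and MESP2 are factors already described above. WDR93, on the other side of MESP1, was below the filter.

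AATF, next to LHX1, was lower by a smaller amount, with 45.1, 34.6 and 31.6 FPKM in the first table, against 38.9, 25.5 and 24.6 in the second (log2 difference -0.53 ± 0.069, adjusted p = 0.00482, limma). GMDS, next to FOXC1, was higher, with 12.8, 15.7 and 19.4 FPKM and 13.7, 22.2 and 25.5 (0.59 ± 0.098, adjusted p = 0.00994, limma), while FOXF2, the forkhead gene on the other side of FOXC1, was below the filter. The tested neighbors of MIXL1 (ACBD3 and LIN9), OTX2 (TMEM260 and EXOC5), GSC (DICER1), SP8 (SP4) and ZIC2 (ZIC5 and PCCA) were not called, nor was MRM1 on the other side of LHX1 (-0.18, adjusted p = 0.366, limma). Among the tested neighbors other than MESP1 and MESP2, ANPEP, AATF and GMDS were called and most were not. The share called among all genes tested was 31.3% for both groups against WT. No test was made of whether neighbors move together more than other genes.

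The tables differed for some factors more than the genotypes did. The WT ratio of the second table to the first was 2.81 for FOXC1, 1.66 for ZIC2, 1.62 for LHX1, 1.57 for SP8 and 1.45 for GSC, against 1.17 for OTX2, 1.13 for MESP2, 0.999 for MIXL1 and 0.955 for MESP1.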
